A study of Homo sapiens with 20 samples.

Results

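The genes described here encode the machinery of oxidative phosphorylation: the nuclear-encoded subunits of the 4 respiratory chain complexes and of the ATP synthase, with the assembly factors and related genes that share their symbols. They were chosen by symbol alone, as probe sets with a single gene symbol that starts with NDUFA, NDUFB, NDUFC, NDUFS, NDUFV, SDHA to SDHD, UQCR, COX4 to COX8 or ATP5. Of the 11282 genes measured, 82 met this rule, and each had 1 single-symbol probe set. Complex I gave 41 of them, complex II 6, complex III 8, complex IV 10 and the ATP synthase 17. By kind, 67 are subunits, 9 are assembly factors (NDUFAF1 to NDUFAF7, SDHAF2 and SDHAF3) and 6 are others. The others are the antisense RNA NDUFB2-AS1, the pseudogene SDHAP3, the retrocopy UQCRHL, the supercomplex factor COX7A2L, the ATPase inhibitor ATP5IF1 and ATP5MGL, a relative of the gene for membrane subunit g.

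The cells were U-87MG, a human glioblastoma cell line, and their RNA was measured in 4 groups of 5 Affymetrix arrays each, which the labels give as biological replicates 1 to 5. One treated group received I3P, which is indole-3-pyruvic acid, another HPP, hydroxyphenylpyruvic acid, and another PP, phenylpyruvic acid, each at 40 µM for 24 h. The control cells received the solvent DMSO. I3P is the keto acid of tryptophan, HPP that of tyrosine and PP that of phenylalanine, and the series is about how such compounds switch on the AHR, a ligand-activated transcription factor. No group carries a genetic change beyond those of the line itself, and all values come from this 1 line. The 3 comparisons with DMSO share the same 5 control arrays, so they are not independent of each other.

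Complexes I and II pass electrons from NADH and succinate to ubiquinone, complex III passes them on to cytochrome c, and complex IV passes them to oxygen. The proton gradient built on the way drives the ATP synthase. Mitochondrial DNA encodes some subunits of every complex other than complex II. The rest are nuclear genes, whose promoters often hold sites for nuclear respiratory factor 1 (NRF1), for ETS factors such as GABPA and for YY1. Glioblastoma cells are known for high glycolysis, and many of them respire as well.

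RefSeq promoter windows of build GRCh38.p14, from 250 bases before to 50 after the start of a gene, were found for 68 of the 82 genes. Cores of the 3 factors were searched on both strands. The NRF1 core TGCGCA stood in 21 of the 68 windows (30.9%), against 13.2% of the windows of 9193 measured genes and 8.42% of all 27305 windows. The ETS core CCGGAAG stood in 19 (27.9%), against 18.6% of the measured genes and 10.7% of all. The YY1 core AAGATGG stood in 15 (22.1%), against 7.73% and 6.06%. For the AHR, a core of its response element, GCGTG, stood in 34 of the 68, against 50.8% of the measured genes and 36.3% of all. The AHR core was added after values had been seen. A match is a string of letters and no evidence of binding. All 4 complex II promoters that matched, those of SDHB, SDHD, SDHAF2 and SDHAF3, held both the NRF1 and the ETS core. In the other complexes the NRF1 core stood in 8.33% (ATP synthase) to 33.3% (complex III) of the windows. The ETS core stood in 13.5% (complex I) to 44.4% (complex IV). Windows with both cores were not counted over all genes. The 4 are shown because SDHC, of the same complex, had the lowest difference from DMSO with I3P. No window was found for SDHC itself. Each runs 5′ to 3′ along the gene's strand and ends 30 bases after the start. Capitals mark NRF1, ETS and YY1 cores on either strand (CTTCCGG is the ETS core read from the other strand). SDHB lies on the minus strand at chr1:17054003-17054282, SDHD on the plus strand at chr11:112086623-112086902, SDHAF2 on the plus strand at chr11:61429874-61430153 and SDHAF3 on the plus strand at chr7:97117448-97117727. SDHB was 1 of the 2 genes here whose window held all 3 cores.
SDHB: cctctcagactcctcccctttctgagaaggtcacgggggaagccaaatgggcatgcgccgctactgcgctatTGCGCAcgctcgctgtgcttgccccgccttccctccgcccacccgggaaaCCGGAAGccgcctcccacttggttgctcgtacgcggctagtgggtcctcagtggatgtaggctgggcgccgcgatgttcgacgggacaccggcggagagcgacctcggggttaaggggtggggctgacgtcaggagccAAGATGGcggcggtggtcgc
SDHD: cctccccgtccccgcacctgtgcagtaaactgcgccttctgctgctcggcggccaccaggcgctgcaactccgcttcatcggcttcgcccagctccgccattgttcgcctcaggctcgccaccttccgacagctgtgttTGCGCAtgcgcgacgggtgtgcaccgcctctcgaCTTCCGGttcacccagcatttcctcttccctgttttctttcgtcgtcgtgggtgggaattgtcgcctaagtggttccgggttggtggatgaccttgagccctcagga
SDHAF2: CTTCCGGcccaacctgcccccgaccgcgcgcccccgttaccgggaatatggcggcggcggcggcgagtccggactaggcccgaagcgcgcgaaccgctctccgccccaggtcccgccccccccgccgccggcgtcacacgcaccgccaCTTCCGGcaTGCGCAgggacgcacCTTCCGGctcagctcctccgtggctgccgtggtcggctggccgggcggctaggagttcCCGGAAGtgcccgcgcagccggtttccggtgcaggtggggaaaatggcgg
SDHAF3: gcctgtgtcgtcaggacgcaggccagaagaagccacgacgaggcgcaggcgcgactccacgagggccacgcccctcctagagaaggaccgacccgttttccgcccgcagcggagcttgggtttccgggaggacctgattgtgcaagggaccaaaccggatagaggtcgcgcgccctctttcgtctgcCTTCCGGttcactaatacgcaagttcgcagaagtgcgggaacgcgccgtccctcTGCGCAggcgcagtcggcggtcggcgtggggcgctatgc

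Values are log2 intensities of the robust multi-array average (RMA), and the medians of the 20 arrays lay between 9.23 and 9.279. Of 12 markers of the line, 9 were measured. VIM, CD44, SPARC, TNC and CHI3L1 had group means of 10.93 to 13.40, and EGFR of 9.84 to 9.95. NES, GFAP and PDGFRA had group means of 8.21 to 8.71, near the low end of the table, whose lowest probe set mean was 7.943. The 4 measured markers of blood and microglial cells, the 2 of epithelial cells, the 3 of neurons and the 2 of muscle had group means of 7.87 to 9.58. In bulk RNA, fewer cells of a type and less RNA per cell cannot be told apart. Arrays with the same replicate number varied together in all groups: all 30 such pairs of arrays had deviations from the group means that correlated above 0.1 (0.163 to 0.714). Tests are therefore given both ways, ignoring the replicate number and with it as a fixed block.

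The 82 genes were mostly well measured. Their means over the 20 arrays ran from 8.28 (NDUFB2-AS1) to 13.17 (ATP5F1B), 53 of the 82 stood in the top 25% of all genes by level, and 13 stood below the median gene. Levels of different probe sets also depend on the probes, so no order of RNA amounts is drawn from them. The SD between replicates of 1 treatment had a median of 0.127 over these genes, against 0.171 over all genes. It ran from 0.053 for ATP5MK, a small membrane subunit of the ATP synthase, to 0.284 for ATP5MGL. The mean of all 82 genes per array was 10.40 ± 0.034 in DMSO, 10.36 ± 0.024 with I3P, 10.40 ± 0.042 with HPP and 10.42 ± 0.039 with PP (SD, n = 5 each). The ranges of the groups overlapped, from 10.32 to 10.39 with I3P and from 10.36 to 10.44 in DMSO.

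**Figure D1:**
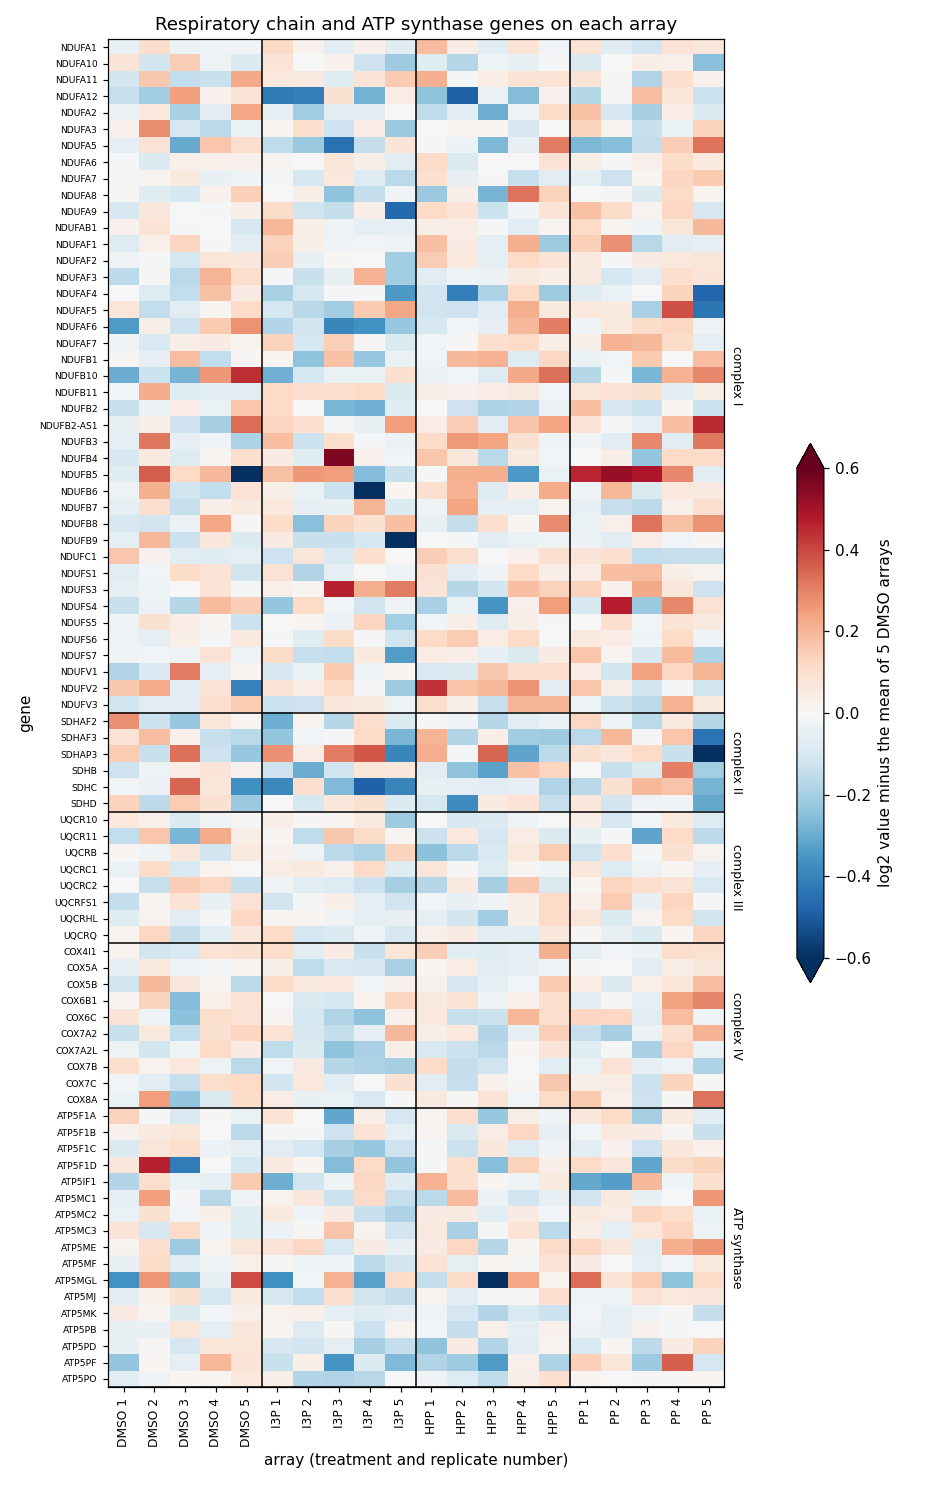
Each row is a gene and each column an array, grouped by treatment and ordered by replicate number; colour is the log2 value minus the mean of the 5 DMSO arrays, with colours at their limit beyond 0.6 in either direction. No block of rows differed by colour across a whole treatment, and single genes such as NDUFB5 and SDHAP3 varied between arrays of 1 treatment.

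Against DMSO, none of the 82 genes passed the test with any of the 3 compounds, and the differences were small on both sides of 0. With I3P, 59 of the 82 genes had a value below DMSO and 23 above, with a median log2 difference of -0.038. With HPP the split was 43 above and 39 below with a median of 0.002, and with PP it was 52 above and 30 below with a median of 0.012. The medians for HPP and PP changed sign when single arrays were left out (-0.013 for HPP without replicate 3 of DMSO, -0.005 for PP without replicate 4 of PP). The median over all 11282 genes was -0.00 with I3P, 0.001 with HPP and -0.005 with PP.

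For I3P against DMSO, limma called 0 of the 82 genes at an adjusted p below 0.05, where 9 of all genes, 0.0798%, were called. With the replicate block it called 0 of the 82, where 68 genes, 0.603%, were called. A share of that size comes to less than 1 gene in a set of 82, so the counts of 0 stand near the background. For HPP against DMSO, limma called 0 of the 82 genes, with 0% of all genes called without the block and 0.0443% with it. For PP against DMSO, limma called 0 of the 82, and 0% of all genes were called without or with the block. At an unadjusted p below 0.05, without the block, stood 4 of the 82 (4.88%) for I3P, 0 for HPP and 0 for PP, against 4.51%, 1.43% and 1.54% of all genes. With the block these counts were 8 (9.76%), 4 (4.88%) and 3 (3.66%), against 11.02%, 4.97% and 4.25% of all genes. The smallest adjusted p of any of the 82 in limma was 0.999 for I3P without the block and 0.255 with it.

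What the arrays could show is given by the intervals of the differences. Without the block, the 95% interval lay within a 1.5-fold difference in either direction for 82 of the 82 genes with I3P, 82 with HPP and 81 with PP. With the block it did so for all 82 genes in all 3 comparisons. The exception without the block was NDUFB5 with PP, whose interval reached 0.68. The median standard error of a difference was 0.085 without the block and 0.067 with it.

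**Figure D2:**
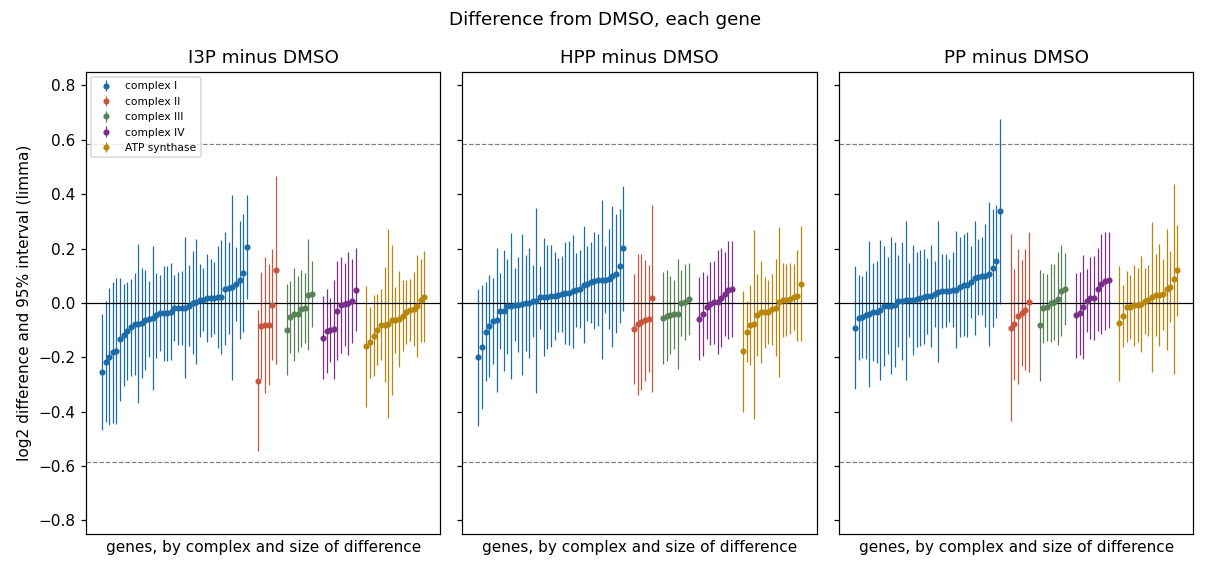
Points are the log2 differences from DMSO of the 82 genes and bars their 95% intervals from limma without the block, coloured by complex and ordered by size within it; dashed lines mark 1.5-fold. With I3P most ATP synthase points lie below 0, and 1 interval, that of NDUFB5 with PP, passes a dashed line.

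Complex I, the NADH dehydrogenase, gave 4 of the 6 genes with the highest and lowest differences with I3P. Its 41 genes had a median difference of -0.019, with 16 above DMSO and 25 below. NDUFAF6, an assembly factor of complex I, measured 8.50, 8.87, 8.71, 8.996 and 9.11 in DMSO replicates 1 to 5. With I3P it measured 8.66, 8.73, 8.45, 8.47 and 8.61 in the same order. The I3P arrays lay within a narrow band at the lower end, and the groups overlapped. The difference was -0.25 ± 0.10 (SE), lower in 4 of 5 same-number pairs, with an adjusted p in limma of 0.999 without the block and 0.289 with it. It moved to -0.19 without replicate 5 of DMSO and to -0.34 without replicate 1 of DMSO. NDUFB9, a membrane arm subunit of the LYR family, differed by -0.22 ± 0.11 and was lower in 4 of 5 pairs. It rested on 1 array: replicate 5 of I3P measured 9.68 where the other 4 measured 10.29 to 10.48, and without that array the difference was -0.08. NDUFS3, a core subunit of the ubiquinone module, went the other way. It measured 9.45, 9.47, 9.49, 9.58 and 9.48 in DMSO, and 9.52, 9.50, 9.95, 9.71 and 9.80 with I3P. It was higher in 5 of 5 pairs by 0.20 ± 0.09, 3 of the I3P arrays stood above every DMSO array, and the adjusted p in limma with the block was 0.384. The difference moved to 0.14 without replicate 3 of I3P and to 0.25 without replicate 2 of I3P. NDUFB4, another membrane arm subunit, differed by 0.11 ± 0.10, and replicate 3 of I3P alone held the direction: without that array the difference was -0.00.

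Complex II, succinate dehydrogenase, is also an enzyme of the citric acid cycle. Its 6 genes had a median difference of -0.081 with I3P, with 5 below DMSO and 1 above. SDHC, a membrane anchor subunit, had the lowest difference from DMSO of all 82 genes. It measured 9.76, 9.75, 10.13, 9.86 and 9.41 in DMSO replicates 1 to 5, and 9.40, 9.88, 9.52, 9.30 and 9.39 with I3P. In 4 of the 5 pairs the I3P array was the lower one, and in pair 2 it was the higher one. The difference was -0.29 ± 0.12, or 1.22-fold, with a 95% interval of -0.49 to -0.08 with the block and an adjusted p in limma of 0.255. It moved to -0.20 without replicate 3 of DMSO and to -0.38 without replicate 2 of I3P. SDHB, the iron-sulfur subunit, differed by -0.08 ± 0.11 and SDHD, the other membrane anchor, by -0.01 ± 0.10. SDHAP3, a pseudogene of SDHA whose probe set may also take up RNA of SDHA, differed by 0.12 ± 0.17, and by 0.06 without replicate 4 of I3P or 0.25 without replicate 5 of I3P. SDHA itself was not analysed here.

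Complex III, which passes electrons to cytochrome c, had 6 of its 8 genes below DMSO with I3P and a median of -0.030. UQCRC2, a core protein, differed by -0.10 ± 0.08, UQCRB, the ubiquinone-binding subunit, by -0.04 ± 0.08, and UQCRFS1, the Rieske iron-sulfur subunit, by -0.05 ± 0.06. In complex IV, cytochrome c oxidase, 8 of 10 were below DMSO, with a median of -0.018. COX7A2L, which joins complexes III and IV into supercomplexes, had the lowest difference of the complex, -0.13 ± 0.07, with an adjusted p in limma of 0.436 with the block. COX4I1, the general isoform of the regulatory subunit 4, measured 11.52 ± 0.10 in DMSO, 11.53 ± 0.10 with I3P, 11.55 ± 0.14 with HPP and 11.54 ± 0.07 with PP (SD, n = 5 each). Its 4 groups lay within 1 SD of each other. Other general isoforms were as close to DMSO with I3P, with differences of -0.01 ± 0.08 for COX6B1, -0.00 ± 0.09 for COX7A2 and -0.03 ± 0.09 for COX8A. The muscle isoforms COX6A2 and COX7A1 and the lung isoform COX4I2 were not analysed here.

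Of the ATP synthase, 15 of 17 genes were below DMSO with I3P and 2 above, with a median of -0.062. ATP5F1C, the gamma subunit of the central stalk, measured 11.22, 11.38, 11.41, 11.27 and 11.25 in DMSO, and 11.24, 11.20, 11.10, 11.08 and 11.18 with I3P. It was lower in 4 of 5 pairs, by -0.15 ± 0.06, with an adjusted p in limma of 0.394 with the block. ATP5PF, coupling factor 6 of the peripheral stalk, differed by -0.16 ± 0.11. The peripheral stalk subunits ATP5PD and ATP5PO differed by -0.12 and -0.10. The catalytic head subunits differed less: ATP5F1B by -0.02 ± 0.06 and ATP5F1A by -0.06 ± 0.08. The 3 genes for the same c-ring protein, ATP5MC1, ATP5MC2 and ATP5MC3, differed by -0.01, -0.05 and 0.01. ATP5IF1, which inhibits ATP hydrolysis by the enzyme, differed by -0.08 ± 0.10.

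The lean below DMSO with I3P was not the same in every pair of arrays. The median over the 82 genes was below 0 in 3 of the 5 same-number pairs and ran from -0.084 to 0.031 (SD 0.052). For the ATP synthase it was below 0 in 4 of 5 pairs, from -0.12 to 0.010. The median over all 82 genes moved to -0.020 when the arrays were renormalised by cyclic loess, and to -0.024 without number 2. Genes above the median level, which these genes mostly are, had a median of -0.0075, with 3013 of 5641 below DMSO. The 71 measured genes of the mitochondrial ribosome, which makes the mitochondrially encoded subunits, had a median of -0.032 with 50 below DMSO.

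**Figure D3:**
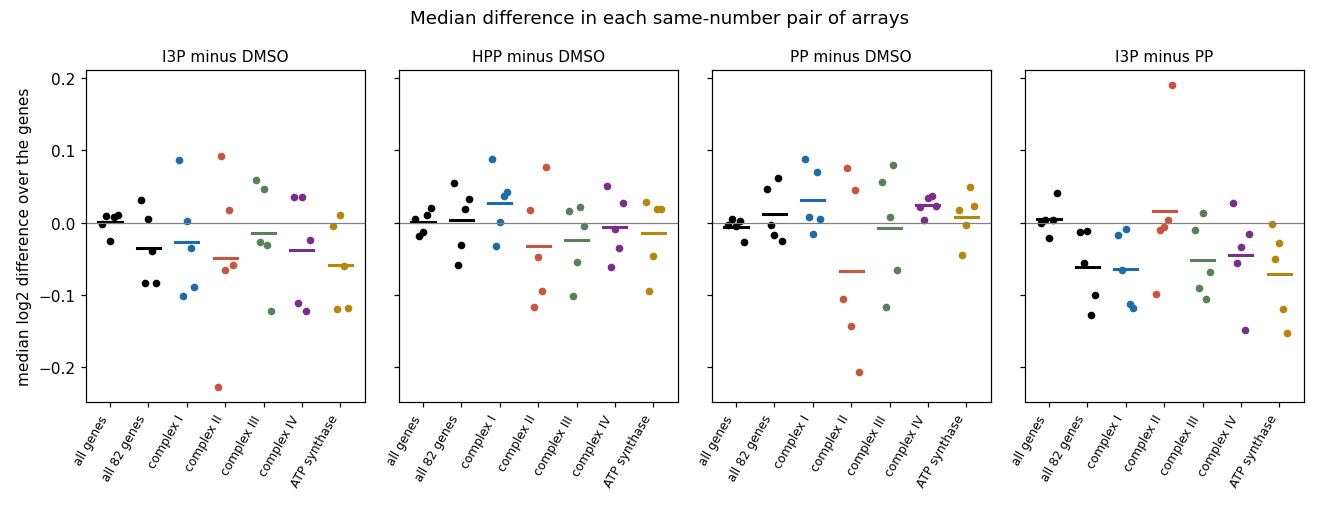
Each point is the median log2 difference over the genes named on the horizontal axis in 1 of the 5 same-number pairs of arrays, and bars are the mean of the 5 points; the panels are 3 comparisons with DMSO and I3P against PP. All 82 genes together lie below 0 in 3 of 5 pairs for I3P against DMSO and in 5 of 5 for I3P against PP.

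HPP, which carries a hydroxyphenyl ring in place of the indole ring of I3P, gave differences from DMSO in both directions. NDUFA12, an accessory subunit of complex I, had the lowest difference. It measured 10.15, 10.08, 10.54, 10.32 and 10.37 in DMSO replicates 1 to 5 and 10.05, 9.81, 10.26, 10.03 and 10.32 with HPP. Every HPP array was below the DMSO array of its number, and the ranges of the groups overlapped. The difference was -0.20 ± 0.12 without the block and had an interval of -0.36 to -0.04 with it, and its adjusted p in limma with the block was 0.944. With I3P the same gene differed from the same DMSO arrays by -0.20, with 5 of 5 pairs lower. NDUFV2, an iron-sulfur core subunit of the NADH dehydrogenase module, had the highest difference with HPP, at 0.20 ± 0.11. It measured 10.92, 10.98, 10.70, 10.85 and 10.36 in DMSO and 11.19, 10.93, 10.95, 11.03 and 10.69 with HPP. The HPP array was the higher one in 4 of 5 pairs. Without replicate 5 of DMSO, the lowest array, the difference was 0.10. ATP5PF differed by -0.18 ± 0.11, the assembly factor NDUFAF4 by -0.16 ± 0.11, the membrane arm subunit NDUFB3 by 0.13 ± 0.10 and NDUFB2-AS1 by 0.11 ± 0.10. None of these passed. Without replicate 2 of HPP, NDUFA12 differed by -0.13 and NDUFAF4 by -0.10. With single arrays left out, NDUFB3 ran from 0.09 (without replicate 5 of DMSO) to 0.21 (without replicate 2 of DMSO), and NDUFB2-AS1 from 0.06 (without replicate 4 of DMSO) to 0.19 (without replicate 5 of DMSO). By complex, the medians with HPP were 0.025, -0.067, -0.042, 0.002 and -0.023 for complexes I to IV and the ATP synthase.

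PP, with a phenyl ring, gave the single widest difference from DMSO. NDUFB5, a membrane arm subunit of complex I, measured 9.40, 9.83, 9.59, 9.67 and 8.87 in DMSO replicates 1 to 5. With PP it measured 9.93, 10.00, 9.96, 9.76 and 9.41. PP was higher in 5 of 5 pairs, by 0.34 ± 0.16 or 1.26-fold, and the groups overlapped. The interval with the block was 0.11 to 0.57, and the adjusted p in limma was 1.00 in both fits. Replicate 5 of DMSO stood lowest, and without it the difference was 0.19. The membrane arm subunit NDUFB8 differed by 0.15 ± 0.10 and NDUFB2-AS1 by 0.13 ± 0.10. The lowest values with PP were -0.09 ± 0.11 for NDUFAF4, -0.09 ± 0.17 for SDHAP3 and -0.08 ± 0.10 for UQCR11, a small subunit of complex III. The first 2 of these changed sign when replicate 5 of PP was left out. UQCR11 moved to -0.02 without replicate 3 of PP and to -0.15 without replicate 3 of DMSO. NDUFB2-AS1 moved to 0.05 without replicate 5 of PP and to 0.21 without replicate 5 of DMSO. By complex, the medians with PP were 0.025, -0.043, 0.002, 0.019 and 0.009 in the same order.

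**Figure D4:**
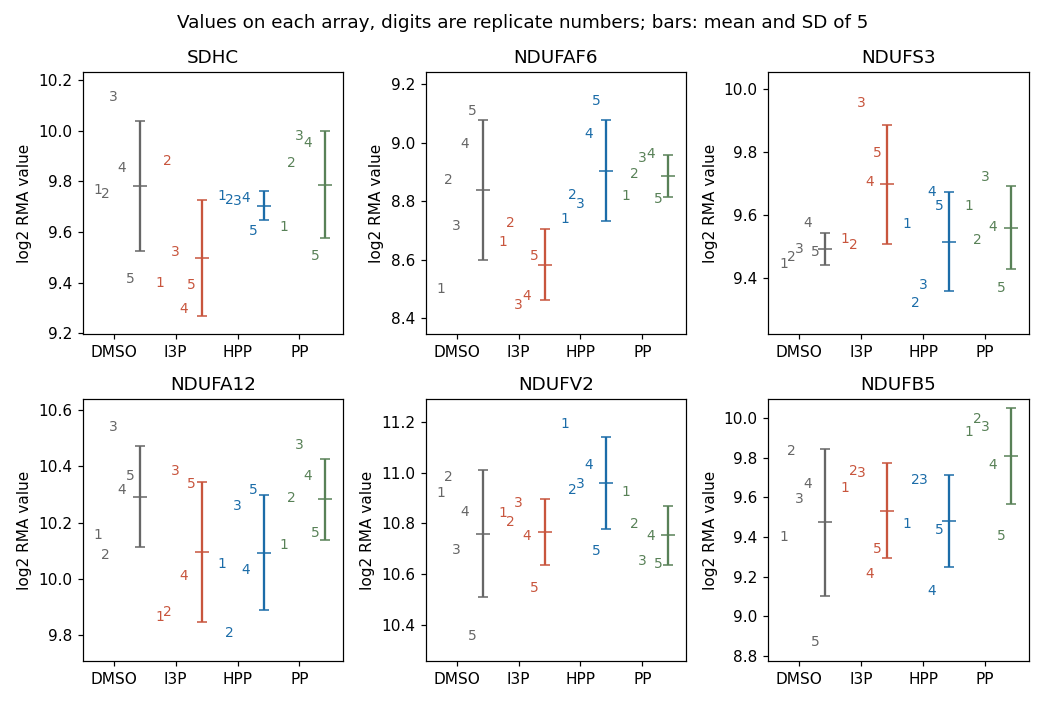
Digits are the replicate numbers of the arrays at their log2 RMA values for 6 genes with wide differences, and bars are the mean and SD of the 5 arrays of a group. The groups of NDUFAF6 do not overlap between I3P and HPP or between I3P and PP, and replicate 5 is the lowest of the DMSO arrays for SDHC, NDUFV2 and NDUFB5.

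The compounds were set against each other at the same dose and time in 3 pairs. For I3P against PP, which differ by an indole against a phenyl ring, 67 of the 82 genes were lower with I3P and 15 higher. Genes on the same arrays are not independent, so such splits are not counts of separate outcomes. The median was -0.057, against 0.004 over all genes, and it was below 0 in 5 of 5 same-number pairs (-0.13 to -0.012). Limma called 0 of the 82 genes, where 0.0886% of all genes were called without the block and 0.904% with it. At an unadjusted p below 0.05 stood 3 of the 82 (3.66%) without the block, against 5.07% of all genes, and 10 (12.2%) with it, against 12.6%. The ATP synthase had 16 of 17 genes lower and a median of -0.085, complex I 32 of 41 and -0.064, and complex IV 9 of 10 and -0.073. Complexes II and III had medians of -0.040 and -0.033, with 4 of 6 and 6 of 8 genes lower. For the mitochondrial ribosome the median was -0.039, with 52 of 71 genes lower.

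For I3P against HPP, 57 of the 82 genes were lower with I3P and 25 higher, with a median of -0.029 that was below 0 in 5 of 5 pairs. It moved to -0.017 under cyclic loess, to -0.055 without replicate 3 of HPP and to -0.017 without number 5 in both groups. Limma called 0 of the 82, and of all genes 0% without the block and 0.115% with it. The unadjusted p was below 0.05 for 2 of the 82 (2.44%) without the block, against 3.40% of all genes, and for 8 (9.76%) with it, against 9.74%. For HPP against PP, which differ by a hydroxyl group on the ring, 56 genes were lower with HPP and 26 higher, with a median of -0.020 that was below 0 in 4 of 5 pairs. It moved to -0.006 without replicate 4 of PP and to -0.039 without replicate 5 of HPP. Limma called 0 of the 82, and of all genes 0% without the block and 0.0266% with it. For this pair the unadjusted p was below 0.05 for 1 of the 82 (1.22%) without the block, against 1.63% of all genes, and for 4 (4.88%) with it, against 5.27%.

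NDUFAF6 was the only gene of the 82 with groups that did not overlap in a comparison. This was so for I3P against HPP, where the groups did not overlap for 0.674% of all genes, and for I3P against PP, where they did not for 1.15%. In the other 4 comparisons 0 of the 82 genes and few of all genes had such groups, 0.833% for I3P, 0.133% for HPP and 0.213% for PP against DMSO and 0.293% for HPP against PP. A count of 1 in 82 genes is close to these shares. NDUFAF6 measured 8.74, 8.82, 8.79, 9.03 and 9.14 with HPP and 8.82, 8.89, 8.95, 8.96 and 8.81 with PP, and its highest I3P array was 8.73. It is a dim gene here, with a mean of 8.80 over all arrays against 9.25 for the median gene. The SD between its replicates was 0.16, wider than the gap to the lowest HPP or PP array. I3P was lower than HPP by 0.32 in log2 (interval of the signed difference -0.51 to -0.13 with the block) and lower than PP by 0.30 (-0.49 to -0.11). The adjusted p in limma with the block was 0.253 against HPP and 0.146 against PP, so neither passed. NDUFB5 differed by -0.33 between HPP and PP (-0.56 to -0.10 with the block) and NDUFV2 by 0.21 (0.06 to 0.35), with an adjusted p in limma with the block of 0.752 for both. ATP5PF differed by -0.23 between HPP and PP, and by -0.21 between I3P and PP, with PP higher in 5 of 5 pairs each time. Its adjusted p in limma with the block was 0.752 and 0.252. The intervals of these genes reach as far as -0.56 in log2, so the compounds are not shown to act alike.

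Some of the respiratory chain genes differed between replicate numbers, in a smaller share than genes as a whole. A moderated F test in limma across the 5 numbers called 20 of the 82 genes (24.4%), against 46.5% of all genes. The median range of the 5 number means was 0.19 for the 82 genes and 0.30 for all genes. When only genes above the median level were tested, 21 of 69 (30.4%) of the respiratory chain genes passed against 56.6% of those genes. The numbers name biological replicates and have no order. What the arrays of 1 number share is not stated in the sources used here.

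By complex, the replicate number was called for 11 of 41 genes of complex I, 3 of 6 of complex II, 0 of 8 of complex III, 2 of 10 of complex IV and 4 of 17 of the ATP synthase. Over all genes the share called was 46.5%, and the share in complex II is near it. None of the 9 assembly factors was called. They were not steadier, as their median range of number means was 0.23, against 0.19 for the 82 genes. NDUFB10, a membrane arm subunit of complex I, had the largest F, 13.6, with an adjusted p in limma of 0.000451. It measured 9.54, 9.71, 9.56, 10.09 and 10.28 in DMSO replicates 1 to 5, 9.54, 9.73, 9.79, 9.80 and 9.93 with I3P, 9.80, 9.82, 9.76, 10.06 and 10.16 with HPP, and 9.67, 9.82, 9.56, 10.04 and 10.12 with PP. Numbers 4 and 5 stood above numbers 1 to 3 in all 4 groups. SDHAP3 was lowest in number 5 (-0.36 from the group means) and highest in number 3 (0.26). ATP5F1A, the alpha subunit of the catalytic head, was lowest in number 3 (-0.19), as was ATP5F1D, the delta subunit of the central stalk (-0.30). In complex IV the largest F was that of COX7A2, at 0.17 in number 5 and -0.12 in number 3. NDUFV2 and NDUFB5 were lowest in number 5, at -0.25 and -0.31.

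**Figure D5:**
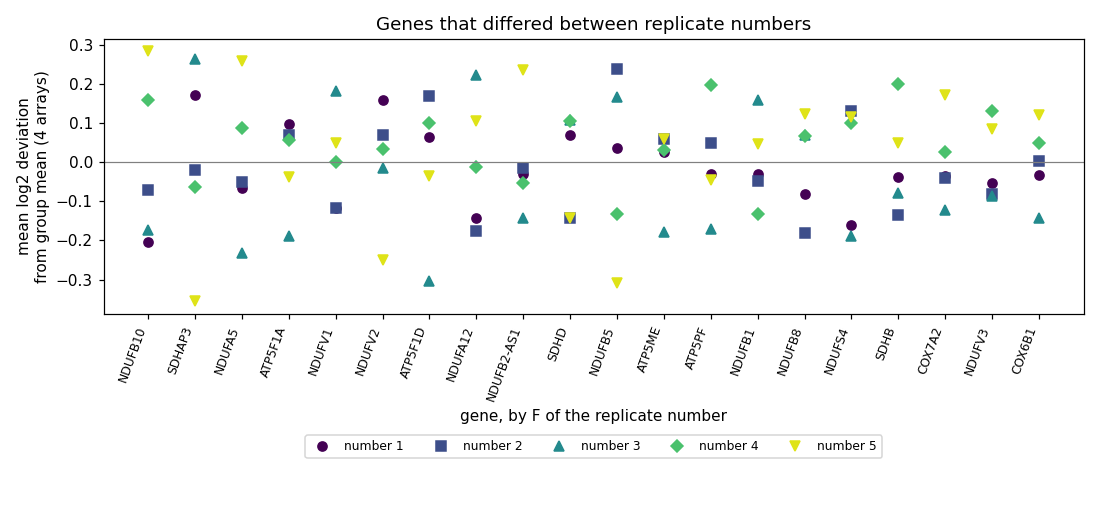
For the 20 genes called for the replicate number, symbols give the mean log2 deviation from the group means of the 4 arrays of each number, with genes in order of F. NDUFB10 runs from -0.20 to 0.28, and the number that stands highest or lowest differs from gene to gene.

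Targets of the hypoxia response that bear on respiration, such as the pyruvate dehydrogenase kinase PDK1 and the mitophagy receptor BNIP3, moved far more with the number. The list was chosen with earlier results of these data known, so its share of calls is a description only. All 11 measured were called, against 46.5% of all genes. Their median range was 0.85, and their number medians were -0.01, 0.20, -0.47, -0.09 and 0.31 for numbers 1 to 5. The medians of the 82 respiratory chain genes were 0.010, 0.003, -0.049, 0.027 and 0.007, lowest in the same number 3. The highest number was not the same: number 4 for the 82 genes and number 5 for the hypoxia targets. Between treatments limma called none of the 11. With I3P, 9 of them were above DMSO, with a median of 0.091 that was above 0 in 5 of 5 pairs. At an unadjusted p below 0.05 without the block stood 1 of the 11, against 4.51% of all genes. Whether the hypoxia targets bear on the respiratory chain values was not tested.

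Within treatments, the 82 genes moved together only weakly. The correlation of deviations from the group means over the 20 arrays had a median of 0.080 over 3321 pairs of these genes, against 0.007 over all pairs of genes. Pairs of the same complex had a median of 0.081 and pairs from different complexes 0.080. Complex IV had a median of 0.29 over 45 pairs and complex II of 0.22 over 15, complex III of 0.15 and complex I of 0.070. These values share the arrays, their normalisation and the replicate numbers, and they are given as a description. The closest pair was COX7A2 of complex IV with NDUFA5, an accessory subunit of complex I (r = 0.92). NDUFA5 was also close to COX6B1 (0.87), and NDUFA9 was close to NDUFS7 (0.86), both of complex I near the ubiquinone site. The most opposed pair was the antisense RNA NDUFB2-AS1 with the pseudogene SDHAP3 (-0.78). Among other opposed pairs, NDUFV1, the flavin-binding subunit that oxidises NADH, ran opposite to ATP5F1A (-0.76).

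Genes that work beside the respiratory chain were read from lists. Of the mitochondrially encoded subunits, 0 of 13 were measured. Of 12 genes for cytochrome c and ubiquinone synthesis, 11 were measured, and of 41 assembly factors outside the symbol rule, 36. Of 10 carriers of adenine nucleotides, phosphate and protons, 9 were measured. In these 3 lists limma called no gene in any of the 6 comparisons, without or with the block. At an unadjusted p below 0.05 without the block, I3P against DMSO had 0, 2 and 0 of them in that order. Of all genes 4.51% stood there, so these counts are near the background. Of 18 regulators of mitochondrial genes, MYC, a transcription factor that drives growth and mitochondrial genes, was called with the block only. It fell with I3P by 0.31 ± 0.053 against DMSO (adjusted p in limma 0.00785), by 0.30 against HPP (0.0427) and by 0.29 against PP (0.0124). Whether MYC bears on the respiratory chain values was not tested. Of 22 measured genes of the citric acid cycle and pyruvate entry, only PC, pyruvate carboxylase, was called, higher with I3P than with PP by 0.28 ± 0.061 (adjusted p in limma with the block 0.0357). Of the mitochondrial ribosome, only MRPL35 was called, at -0.42 ± 0.074 for I3P against HPP (adjusted p in limma with the block 0.0396). Of all genes, limma with the block called 0.603% for I3P against DMSO, 0.115% for I3P against HPP and 0.904% for I3P against PP.

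The choice of symbols changed the set at its edges. By the older symbols of the array annotation, COXFA4L2 (annotated as NDUFA4L2) and DMAC2 (annotated as ATP5SL) would enter, and ATP5IF1, ATP5MJ, ATP5MK and SDHAF3 would leave. COXFA4L2, a relative of a complex IV subunit that is known to rise in hypoxia, measured 9.47 ± 0.12 in DMSO, 9.48 ± 0.17 with I3P, 9.50 ± 0.20 with HPP and 9.63 ± 0.18 with PP (SD, n = 5 each), and its groups overlapped. A further 11 probe sets carried several symbols, at least 1 of them of the rule, such as NDUFS8, NDUFC2, COX6A1 and NDUFA13, and were left out. Some of them name genes of the set, namely NDUFS3 (with PTPMT1), ATP5MF and UQCRHL. Whether these probe sets differ between treatments as the ones used do was not examined.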

How the data were processed

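The values are the log2 intensities deposited by the authors. Per the submitters' processing notes they were made with oligo and RMA, a method that removes background, forces the arrays to a common distribution and combines probes. No version is stated, and neither is the reason that no probe set mean lies below 7.943. On this scale a difference can understate that of a dim gene, and precision is limited by how many arrays there are.

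Gene symbols come from the array's annotation, brought up to date with RefSeq names (GRCh38.p14) for 833 probe sets and kept as they were for 33 without a match. Of 12770 probe sets, 11316 had 1 symbol, 629 several and 825 none. The highest-mean probe set was kept for 33 genes with several, which left 11282 genes. Of the 82 symbols, 18 were updated.

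A model of group means over the 20 arrays was fitted in limma 3.58.1 (R 4.3.3). Tests were 2-sided, p-values were adjusted by Benjamini-Hochberg over the 11282 genes, and the threshold was 0.05. The replicate number was a fixed block in the alternative. The numbers were taken to pair the arrays: same-number arrays correlated at 0.163 to 0.714, different-number arrays at a median of -0.157, and 19 of 20 arrays correlated best with their own number. Figures used matplotlib 3.10.9 in Python 3.11.15.

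Genes named are the 3 highest and the 3 lowest differences of each compound from DMSO, in each complex the highest mean, the lowest mean and the largest F for the number, and isoforms fixed by name. Of these, COX5B, the lowest mean of complex IV (10.25), is not described further. UQCR11 had the largest F of complex III (2.24) and was not called. ATP5F1C, ATP5F1D, ATP5MK, SDHD, UQCRC2, UQCRFS1, the peripheral stalk subunits and the lists' called genes were chosen after their values were seen. So were the closest and the opposed pairs of genes. The genes and lists were chosen with earlier results of these data known.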

Additional observations from a re-analysis of the deposited data

Results flagged for a closer look

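In 10 of 176 groups of 5 arrays checked, the highest or lowest array lay far from the others, with a gap of more than 0.71 of the group's range. Chance gives this in about 1 group in 20. ATP5F1D, the delta subunit of the ATP synthase, was low in replicate 3 of PP (10.02, nearest 10.40), and ATP5ME, its membrane subunit e, was low in replicate 3 of DMSO (9.82, nearest 10.06). In complex I, NDUFA3 was low in replicate 4 of HPP (11.73, nearest 11.83) and NDUFB4 was high in replicate 3 of I3P (11.70, nearest 11.20). NDUFB8 was low in replicate 2 of I3P (8.88, nearest 9.23), and NDUFB9 was low in replicate 5 of I3P (9.68, nearest 10.29). SDHC was low in replicate 5 of HPP (9.60, nearest 9.72). COXFA4L2 was high in replicate 5 of PP (9.96, nearest 9.58). The median over the 82 genes was low in replicate 1 of DMSO (10.30, nearest 10.36) and in replicate 3 of HPP (10.26, nearest 10.39).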

How the results depend on the processing

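Limma called 0 of the 82 genes in all 6 comparisons under each of the 234 counts from the alternatives tried, and the smallest adjusted p of any of them was 0.131. Of 658 values of named genes under alternatives, 651 kept their direction. The exceptions came from leaving out arrays: NDUFB4 with I3P ran from -0.0211 to 0.1707, NDUFAF4 with PP from -0.1505 to 0.0169, and SDHAP3 with PP from -0.1642 to 0.0372 (0.0046 and -0.0016 are the values of NDUFAF4 without replicate 5 of PP and of NDUFB4 without replicate 3 of I3P). The median difference of the 82 genes stayed within 1 SD of the pairs throughout: -0.056 to -0.020 for I3P against DMSO, -0.013 to 0.017 for HPP, -0.005 to 0.031 for PP, and -0.076 to -0.045 for I3P against PP.

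Counts over all genes depended on the replicate block. With it, limma called 68 genes for I3P against DMSO in place of 9, 5 for HPP in place of 0, 13 for I3P against HPP in place of 0, 102 for I3P against PP in place of 10 and 3 for HPP against PP in place of 0. As a random block, added after the data had been seen, it gave 38 for I3P against DMSO, 1 for I3P against HPP and 73 for I3P against PP. With only the 10 arrays compared the counts were 3 for I3P against DMSO and 6 for I3P against PP. Without the block, leaving out arrays gave 0 to 10 for I3P against DMSO, 0 to 1 for I3P against HPP and 0 to 15 for I3P against PP. With the block, leaving out numbers 1 to 5 in turn gave 49, 35, 46, 35 and 37 for I3P against DMSO, 1, 0, 0, 0 and 2 for HPP, and 5, 1, 4, 1 and 1 for I3P against HPP. In the same order it gave 59, 38, 53, 35 and 50 for I3P against PP, and 0, 0, 0, 0 and 1 for HPP against PP. The replicate number was called for 3193 genes when only the 5641 genes above the median level were tested. Another scaling moved the median of all genes by at most 0.006. The cause of these shifts was not tested. Signal over background was not used here.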
